A study of Mus musculus with 2 samples.

Results

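The genes described here encode the carriers that move amino acids, and a few related small molecules, across cell membranes. They were taken as every gene whose symbol belongs to the solute carrier families Slc1, Slc3, Slc6, Slc7, Slc36, Slc38 or Slc43 and which had at least 1 probe set that the platform annotation gives to that gene alone. This found 64 of the 19935 genes on the array, in 7 families. Of the 64, 2 (Slc7a6os and Slc6a19os) are named for lying on the strand opposite to a carrier gene and were set apart, which left 62 transporter genes. The dendritic cells (DCs), the antigen-presenting cells that prime T cells, were sorted by flow cytometry from spleen, and the mice were wild-type C57BL/6 aged 8 weeks. The cells were cultured with vehicle (medium) in 1 sample and with IL-27, a cytokine of the IL-12 family, in the other. The culture time is labelled "ON", and the number of mice or cultures behind a sample is not stated. Each sample was read on 1 array, so the differences have no replicate check and no SD or p-value is given, and in such bulk RNA fewer cells of a type and less RNA per cell cannot be told apart.

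Amino acid carriers work in sets. Members of the Slc7 light-chain group reach the cell surface joined to a heavy chain, CD98 heavy chain (Slc3a2), and exchange amino acids: Slc7a11 (xCT) takes in cystine for glutamate, Slc7a5 (LAT1) and Slc7a8 (LAT2) exchange large neutral amino acids, and Slc7a6 and Slc7a7 exchange cationic for neutral ones. Slc7a1 and Slc7a2 carry arginine and lysine without a heavy chain. Slc1 carriers bring in glutamate and aspartate or small neutral amino acids, Slc38 carriers glutamine and other small neutral ones, and Slc36a1 and Slc38a9 sit on lysosomes, where Slc38a9 also reports arginine to the kinase complex mTORC1. In DCs and macrophages such carriers supply cystine for glutathione, arginine for nitric oxide and arginase, and leucine and glutamine for growth after activation.

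The values are probe set intensities on a linear scale, and a difference is the log2 intensity on the IL-27 array minus that on the vehicle array. Intensities of different probe sets are not comparable as transcript levels, so each gene was compared only with itself. A gene is called higher or lower when its difference is at least 1 in size, that is 2-fold, and its brighter array is at or above an intensity of 96.2, the median of all probe set values (the level minimum). Of the 62 transporter genes, 29 were over this minimum. Signal with no expression expected was gauged by 1027 olfactory receptor genes, whose 95th percentile (77.3 for vehicle, 129 for IL-27) is called the olfactory limit below. A fold is written as "at least" where the dimmer value was no higher than its limit, which then stands in for that value.

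As deposited, 1 carrier gene was higher on the IL-27 array and at least 1 other lower in each of 3 substrate classes. The classes were cystine, glutamate and aspartate, then large neutral, then cationic amino acids. In the first, the higher gene imports cystine and the lower one glutamate. In the cationic class, the lower calls were short of 2-fold after quantile normalization and with the dependence of differences on level removed. Slc7a11, Slc7a5 and Slc7a1, for cystine, large neutral and cationic amino acids, were 6.23-fold, 3.41-fold and 2.44-fold higher. Slc1a3 (glutamate), Slc7a8 and Slc43a2 (large neutral) and Slc7a7 and Slc7a2 (cationic) were lower, as were Slc38a6, Slc36a1 and, by the brighter of its 2 probe sets, Slc38a9. Of the 29 transporter genes over the minimum, 3 (10.3%) were higher, against 1.52% of all 11140 genes over it (0.848% of all 19935 genes). Lower were 8 (27.6%), against 13.2% (7.36% of all genes). The 11 called genes were over the level minimum on both arrays. The other 18 were neither, and the median difference of the 29 was -0.26, beside -0.34 for all genes over the minimum.

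**Figure D1:**
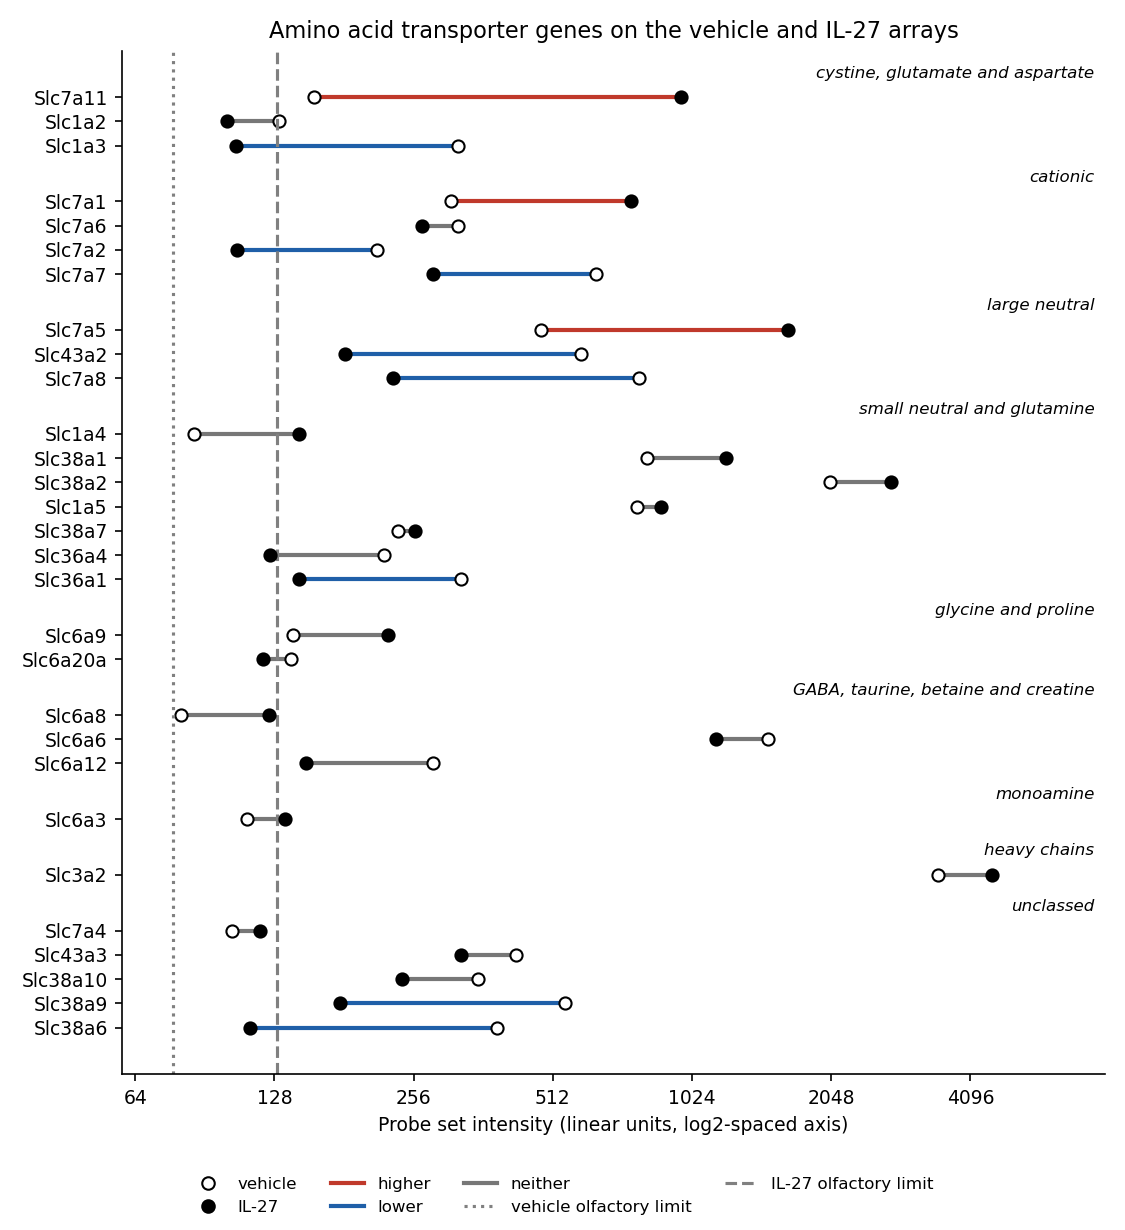
Intensities of the 29 transporter genes over the level minimum on the vehicle array (open circles) and the IL-27 array (filled circles), on a log2-spaced axis and grouped by main substrate, with the olfactory limit of each array as a vertical line. Red lines join the 3 genes called higher, of which Slc7a11 went from 156 to 969, and blue lines the 8 called lower.

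Slc7a11 encodes xCT, which imports cystine, the source of cysteine for glutathione, in exchange for glutamate. Its intensity was 156 after vehicle and 969 after IL-27, a difference of 2.64. Both values were above the olfactory limits. The 500 genes nearest to it in mean level had a median difference of -0.55 and a range from the 5th to the 95th percentile of -1.53 to 0.35. The difference of Slc7a11 lay above that range, and it was 3.15 with the dependence of differences on level removed by lowess.

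The promoter of Slc7a11 is shown because it holds 2 copies of the motif TGATGNAAN, the element read by CCAAT/enhancer binding proteins paired with ATF4 in amino acid shortage. The motif was searched on both strands in the RefSeq promoter windows of GRCm38.p6, from 250 bases before to 50 bases after each annotated start. Of 27025 genes with a window, 4.50% had a match. The 250 bases before the start of Slc7a11 (chr3:50443614-50443863, minus strand) are printed 5′ to 3′, with the matches in capitals.
Slc7a11: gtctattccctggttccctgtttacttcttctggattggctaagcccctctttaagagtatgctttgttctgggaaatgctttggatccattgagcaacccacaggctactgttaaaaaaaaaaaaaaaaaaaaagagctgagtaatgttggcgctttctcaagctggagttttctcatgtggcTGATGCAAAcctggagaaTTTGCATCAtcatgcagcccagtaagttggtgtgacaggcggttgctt
The matches begin 66 and 48 bases before the start, the first on the strand shown and the other on the opposite strand, so that they face each other.

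Among the 29 transporter genes over the minimum, 21 had a promoter window, and matches occurred in Slc7a11, Slc1a4 and Slc7a7. Over all 45 transporter genes with a window, 4 (8.89%) had a match. By call these were 1 of 2 higher, 1 of 7 lower, 1 of 12 neither and 1 of 24 below the minimum. Slc1a4 (chr11:20332700-20332729, minus strand) and Slc7a7 (chr14:54418067-54418096 and chr14:54417927-54417956, minus strand) are printed because they were over the minimum and held matches. Slc1a4 was neither, with a difference of 0.75, and Slc7a7 was lower.
Slc1a4: gtgcctcctgcGTTGCATCAtctccagcct
Slc7a7, upstream match: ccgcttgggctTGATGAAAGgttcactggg
Slc7a7, downstream match: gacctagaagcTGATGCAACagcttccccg
The match in Slc1a4 begins 5 bases before the start. Those in Slc7a7 begin 141 and 1 bases before 1 of its 5 annotated starts, and another of its windows also holds the downstream match. Slc7a1, the other higher gene with windows, had no match in either of its 2, and Slc7a5 and Slc7a2 had no window in the table. By call, the motif occurred in 9.52% of 126 higher genes, 3.86% of 1191 lower genes and 2.50% of 7599 genes that were neither, and among genes below the level minimum it occurred in 4.68% of 6645, over all genes with a window. The antioxidant response element, searched as TGANNNNGC, matched in 45.0% of genes and in 64.4% of the 45 transporter genes with a window. By call over all genes, it matched in 43.7% of higher, 45.7% of lower, 47.7% of neither and 43.6% of genes below the minimum. Of the transporter genes, 2 of 2 higher, 6 of 7 lower, 6 of 12 neither and 15 of 24 below the minimum held it. In Slc7a11 it matched 3 times, once overlapping the ATF element that begins 48 bases before the start. A match describes letters and shows no binding.

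Among the other carriers of cystine, glutamate or aspartate, Slc1a3 was lower. Slc1a3 encodes GLAST, a sodium-driven glutamate importer best known from glia. It had 320.1 after vehicle and 106 after IL-27, the latter below the olfactory limit, and was at least 2.47-fold lower. Its difference as read, -1.60, lay below the range of its 500 neighbours in level (-1.42 to 0.41). With the limit in place of the IL-27 value it was -1.31, inside that range. Slc1a2, another glutamate importer, had 131 and 101, the latter below the olfactory limit, and the other 4 genes of this class were below the level minimum.

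The carriers of large neutral amino acids held 1 higher and 2 lower genes. Slc7a5, which imports leucine and its like in exchange for glutamine, had 484 after vehicle and 1651 after IL-27, a difference of 1.77. Slc7a8, its closest functional relative among the light chains, had 786 and 231 and was 3.40-fold lower, a difference of -1.77. Slc43a2 (LAT4), which lets large neutral amino acids pass without exchange, had 589 and 182 and was 3.23-fold lower. Slc7a5 lay above and Slc7a8 and Slc43a2 below the range of their neighbours in level. The other 5 genes of the class, Slc43a1 and 4 Slc6 genes among them, were below the level minimum.

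Carriers of cationic amino acids were divided in the same way. Slc7a1 (CAT1), the widely expressed arginine and lysine importer, had 309 after vehicle and 754 after IL-27. Slc7a2 (CAT2), which supplies arginine in activated macrophages, had 214 and 106, the latter below the olfactory limit, and was at least 1.65-fold lower. Slc7a7 (y+LAT1) had 634 and 283 and was 2.25-fold lower. Slc7a6 (y+LAT2), which exchanges the same amino acids, had 319 and 267 and was neither, and its difference of -0.26 was above 0 after quantile normalization (0.07) and with the level trend removed (0.27). Slc7a1 lay above the range of its neighbours in level, and Slc7a2 and Slc7a7 lay within theirs. The calls of Slc7a2 and Slc7a7 were short of 2-fold after quantile normalization (-0.91 and -0.84) and with the level trend removed (-0.73 and -0.66).

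Slc3a2, the heavy chain shared by these exchangers, had 3479.6 after vehicle and 4555 after IL-27, 1.31-fold higher and short of the size rule. Its neighbours in level had a range of -1.22 to 0.69, and its difference of 0.39 lay inside. Of the 6 light chains known to pair with it, Slc7a11 and Slc7a5 were higher, Slc7a8 and Slc7a7 lower and Slc7a6 neither, and Slc7a10 was below the level minimum. Slc3a1, the heavy chain of kidney and gut, had 65.8 and 80.1 and was within the olfactory range on both arrays.

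**Figure D2:**
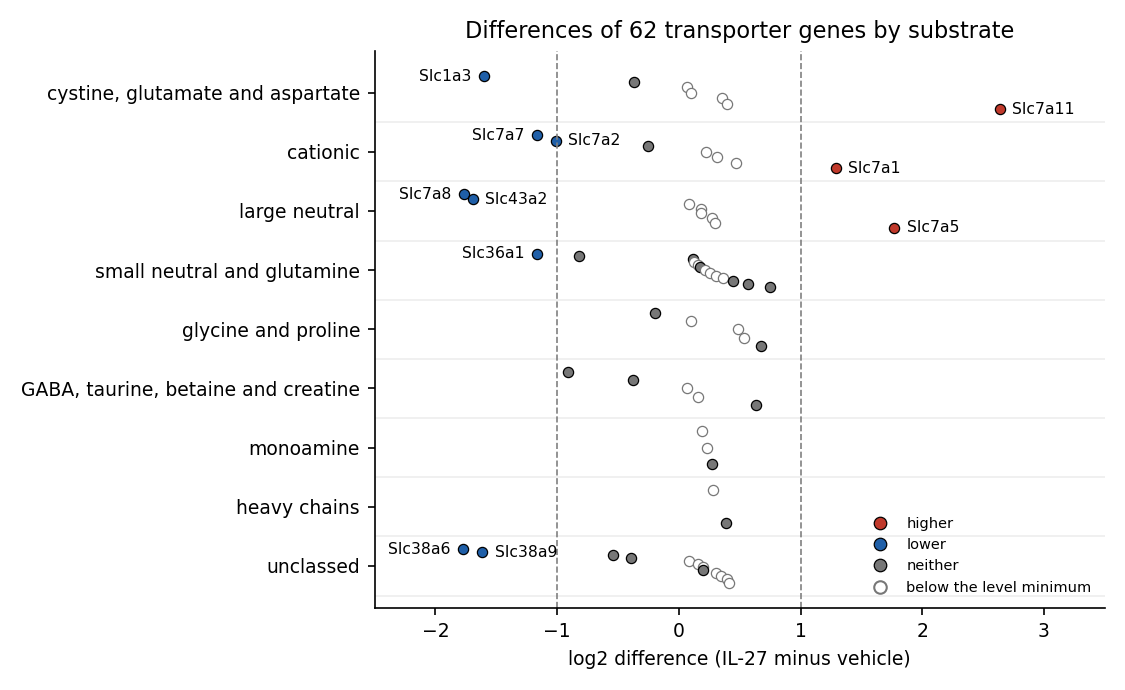
Log2 difference (IL-27 minus vehicle) of each of the 62 transporter genes, by main substrate, with open circles for genes below the level minimum and dashed lines at -1 and 1. The class of cystine, glutamate and aspartate, the cationic class and the large neutral class each hold 1 gene above 1 (Slc7a11 at 2.64, Slc7a1 at 1.29, Slc7a5 at 1.77). Each also holds at least 1 gene below -1, and the points below the level minimum lie between 0.06 and 0.54.

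The carriers of small neutral amino acids and glutamine mostly differed by less than 2-fold. Slc38a2 (SNAT2), which is induced in many cells when amino acids run short, had 2033 after vehicle and 2762 after IL-27, and Slc38a1 (SNAT1) had 818 and 1211. Slc1a5 (ASCT2), a glutamine importer, had 779 and 879, a difference of 0.17. Slc1a4 (ASCT1), which carries serine and alanine, had 85.8 and 144 and was 1.68-fold higher, above the range of its neighbours in level (-1.03 to 0.63). Of the 7 genes of this class over the minimum, 5 had a difference above 0, beside 3245 of all 11140 genes over it. Slc36a1 alone was called lower (14.3% of the 7), a share near the 13.2% of all genes. The second probe set of Slc38a1 had 119.7 and 136, a difference of 0.18 in place of 0.57.

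At the lysosomal membrane, amino acids freed by protein breakdown leave for the cytosol. Of 4 genes for its carriers, 2 were called lower and 2 neither. The lower ones are 50% of these few genes, beside 13.2% of all genes over the minimum, and both calls depended on the setting. Slc38a9, the arginine sensor, had 545 after vehicle and 178 after IL-27 by its brighter probe set, 3.06-fold lower. Its other probe set had 134 and 145, a difference of 0.11, so the probe sets of this gene disagree, and their mean of -0.75 was short of the size rule. Slc36a1 (PAT1), a proton-driven exporter of small neutral amino acids, had 324 and 145 and was 2.24-fold lower, or -0.92 after quantile normalization and -0.69 with the level trend removed. Slc36a4, of the same family, had 221 and 125, the latter below the olfactory limit. Slc38a7, which releases glutamine and asparagine, had 237 and 257. With the level trend removed Slc36a4 was at -0.47 and Slc38a7 at 0.62. Slc36a1, Slc36a4 and Slc38a7 lay within the range of their neighbours in level, and Slc38a9, by its brighter probe set, below its own. Differences of these 4 genes therefore ran from -1.62 to 0.12.

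Slc38a6 (SNAT6), whose cargo is less settled, had 388 after vehicle and 113 after IL-27, below the olfactory limit, and was at least 2.995-fold lower. Its difference of -1.77 lay below the range of its neighbours (-1.47 to 0.42). Slc38a10 had 353 and 242, a difference of -0.54 beside -0.53 for the median of its neighbours. Slc43a3, a purine nucleobase carrier in spite of its family, had 426 and 325. Slc7a4, of unknown cargo, had 104 and 119, the latter below the olfactory limit. Of the opposite-strand genes, Slc7a6os had 231 and 213, and Slc6a19os had 54.7 and 82.6, within the olfactory range. With the level trend removed the differences of Slc43a3 and Slc7a6os turned above 0, to 0.13 and 0.37.

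None of the 20 Slc6 genes, which use sodium and chloride to import neurotransmitters, osmolytes and some amino acids, passed the size rule as deposited, and 14 of them were below the level minimum. Slc6a6 (TauT), the taurine importer, had 1497 after vehicle and 1154 after IL-27. Slc6a9 (GlyT1), a glycine importer, had 141 and 225 and was 1.60-fold higher, above the range of its neighbours in level (-1.31 to 0.42), and with the level trend removed it passed 2-fold at 1.07. Slc6a8, the creatine importer, had 80.5 and 125, the latter below the olfactory limit. Slc6a12 (BGT1), for betaine and GABA, had 282 and 149.8, a difference of -0.91. Slc6a20a, for proline, had 139 and 121, the latter also below the limit, and the dopamine carrier gene Slc6a3 had 111 and 135.

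The 33 transporter genes below the level minimum had intensities of 27.8 to 82.6 with vehicle and 34.4 to 95.03 with IL-27. Of these, 30 were within the olfactory range in both samples, so their signal was no stronger than that of olfactory genes. All 33 had a difference above 0, from 0.06 to 0.54 with a median of 0.23, and the olfactory genes, whose medians were 40.5 and 59.0, also read brighter on the IL-27 array. They include carriers of brain, kidney and gut such as Slc6a5, Slc6a19 and Slc7a9, and Slc7a3, Slc7a10 and Slc38a5 of the families described above.

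**Figure D3:**
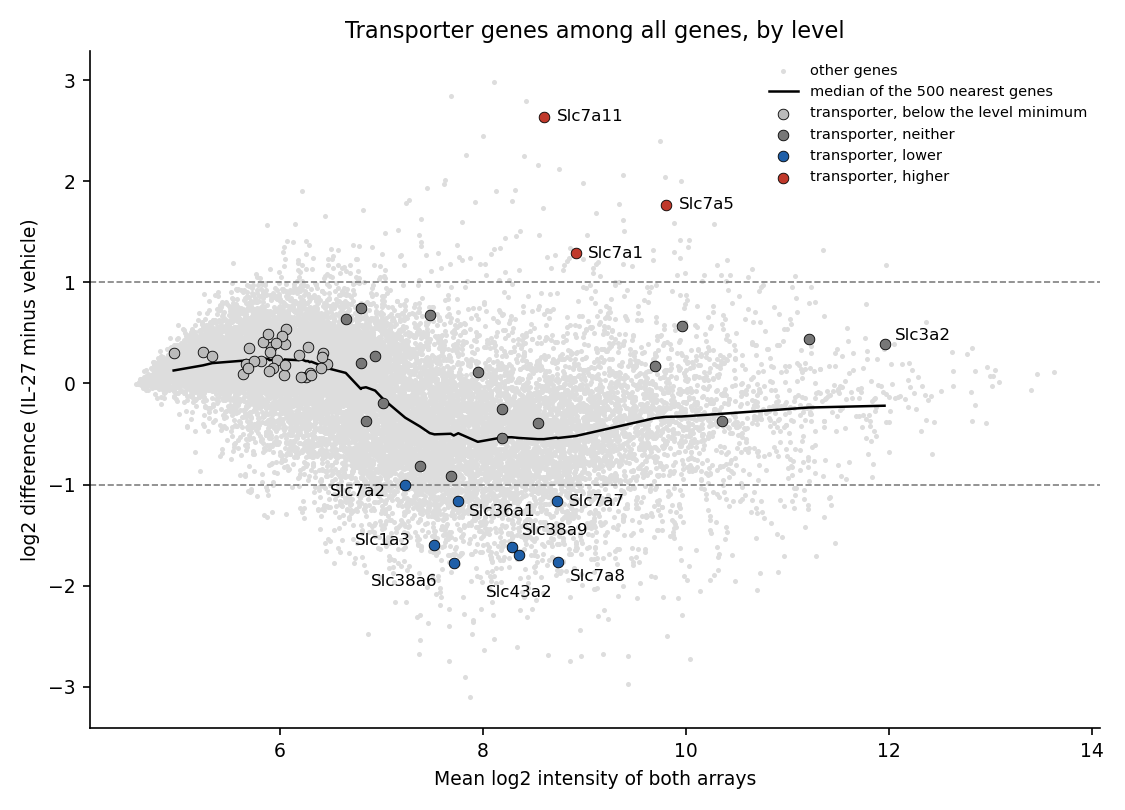
Log2 difference (IL-27 minus vehicle) against the mean log2 intensity of both arrays for all genes (pale points) and the 62 transporter genes (coloured by call), with the median difference of the 500 nearest other genes as a black line. The line lies above 0 at low level and near -0.55 at the level of Slc7a11, which stands at 2.64, and dashed lines mark -1 and 1.

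Differences on these arrays depended on level, so each transporter gene was set beside the 500 genes nearest in mean level that belong to none of the 7 families. Of the 29 transporter genes over the minimum, 5 lay above the 5th to 95th percentile range of their neighbours and 5 below it. Those above were Slc7a11, Slc7a5, Slc7a1, Slc6a9 and Slc1a4, and those below were Slc38a6, Slc7a8, Slc43a2, Slc38a9 and Slc1a3. These counts use intensities as read. With the olfactory limit in place of its IL-27 value, Slc1a3 was at -1.31, inside the range of its neighbours. Of the 29, 15 were above and 14 below the median of their neighbours, with a median distance of 0.16. Removal of the level trend brought the median of all genes over the minimum from -0.34 to -0.0029, and quantile normalization to -0.15. With the trend removed, 4 transporter genes were higher and 5 lower (13.8% and 17.2% of the 29, beside 3.06% and 5.33% of all genes over the minimum), so that higher genes were 44.4% of the calls in place of 27.3%, and with quantile normalization 3 were higher and 5 lower (37.5%). The latter counts are 10.3% and 17.2% of the 29, beside 2.11% and 8.19% of all genes. Under a 1.5-fold rule 6 of the 29 were higher (20.7%) and 10 lower (34.5%), beside 5.86% and 33.7% of all genes, so the share of lower genes was then near that of all genes. Among all called genes over the minimum, higher genes were 10.3% of the calls as deposited, 36.5% with the trend removed and 20.5% with quantile normalization. These stand beside 27.3%, 44.4% and 37.5% for the transporter genes. Slc7a11, Slc7a5, Slc7a1, Slc38a6, Slc7a8, Slc43a2 and Slc1a3 kept their call under each setting run, and Slc7a2, Slc7a7, Slc36a1 and Slc38a9 lost theirs under at least 1.

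**Figure D4:**
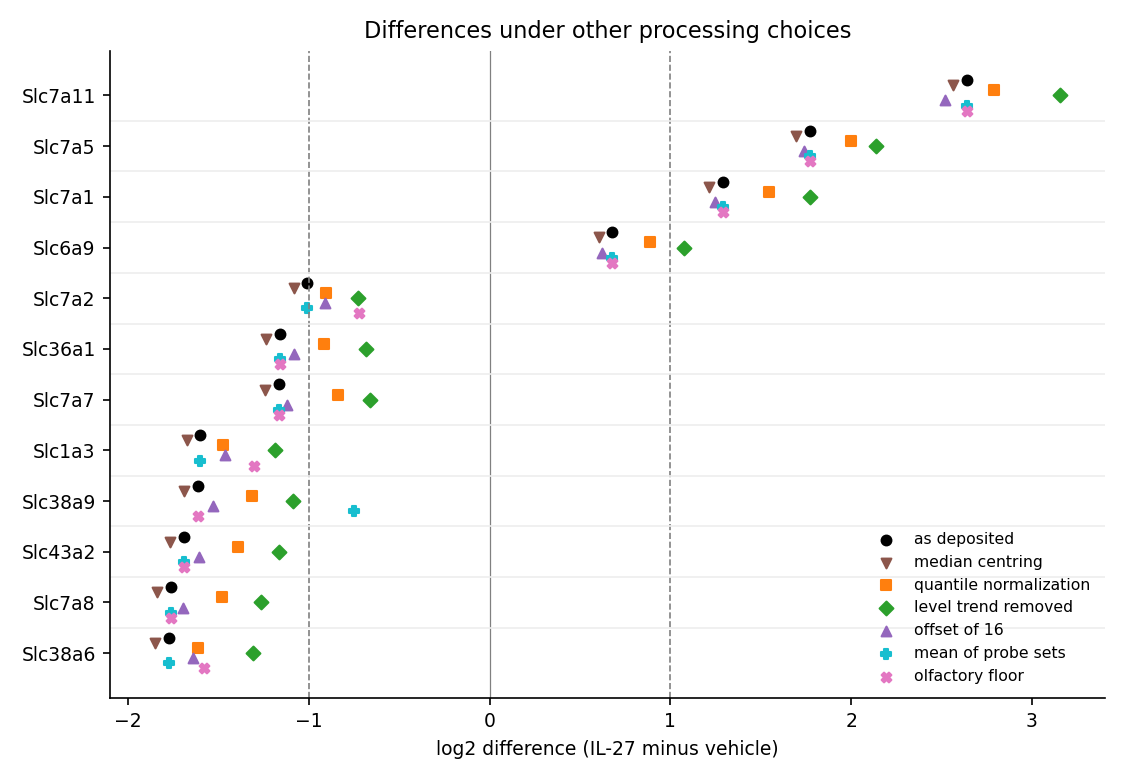
Log2 difference (IL-27 minus vehicle) of the 11 called genes and of Slc6a9 as deposited and under 6 other processing choices, with dashed lines at -1 and 1. Slc7a11, Slc7a5 and Slc7a1 stay above 1 throughout, and Slc38a9 moves to -0.75 when its probe sets are averaged.

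Genes that make or use what these carriers bring in were taken from lists of amino acid metabolism. In the glutathione list, of 12 genes over the minimum, 1 was higher and 1 lower (8.33% each, beside 1.52% and 13.2% of all genes). With the level trend removed 3 of the 12 were higher and 1 lower, beside 3.06% and 5.33% of all genes over the minimum. Chac1, which degrades glutathione, had 176 after vehicle and 788 after IL-27, and Ggt5, which splits glutathione outside the cell, had 245 and 92.0 and was at least 1.90-fold lower. Gclc, the catalytic subunit of the first enzyme of glutathione synthesis, had 1240 and 2444 and was 1.97-fold higher, just short of the size rule, or 1.23 in log2 with the level trend removed. Txnrd1, a thioredoxin reductase named after its values were seen, had 459.9 and 824, a difference of 0.84 that was 1.28 with the trend removed. Gpx1, a glutathione peroxidase, had 2895 and 1549.9.

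Among 20 genes of amino acid synthesis and use over the minimum, 1 was higher and 2 lower (5% and 10%, beside 1.52% and 13.2% of all genes). With the level trend removed 7 of the 20 were higher and 1 lower, beside 3.06% and 5.33% of all genes over the minimum. With quantile normalization the counts were 4 and 1, beside 2.11% and 8.19% of all genes. Asns, which makes asparagine, had 76.6 after vehicle, below the olfactory limit, and 549.8 after IL-27 and was at least 7.12-fold higher. Kmo, of tryptophan breakdown, had 1243 and 253, and Glul, glutamine synthetase, had 1849.8 and 867 and was 2.13-fold lower, short of 2-fold at -0.78 with the level trend removed. Got1, a cytosolic aspartate aminotransferase, had 1226 and 2383. Got1 was among the 7 at 1.22 with the trend removed, as were Asns at 3.30 and, named after their values were seen, Odc1 of polyamine synthesis (1.34), Psat1 and Phgdh of serine synthesis (1.32 and 1.11), Shmt2 of mitochondrial one-carbon metabolism (1.21) and Aldh18a1 of proline synthesis (1.09). The median of the list was 0.24.

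The list around GCN2, PERK and ATF4, which senses amino acid shortage and stress in the endoplasmic reticulum, had 3 genes lower and 0 higher of 14 over the minimum, with a median of -0.02. The 3 lower genes are 21.4% of the list, beside 13.2% of all genes. With the level trend removed 2 of the 14 were higher (Nupr1 and Atf4) and 1 lower (Ddit4), beside 3.06% and 5.33% of all genes over the minimum. With quantile normalization the counts were 1 and 2, beside 2.11% and 8.19% of all genes. Ddit4, an inhibitor of mTORC1, had 626 after vehicle and 216 after IL-27. The stress factor gene Atf3 had 3422 and 1545, and Eif2ak4, which encodes GCN2, had 378 and 184. With the level trend removed Atf3 and Eif2ak4 were short of 2-fold, at -0.94 and -0.52. Nupr1, a stress-induced nuclear protein gene, had 126 and 227, a difference of 0.85 that was 1.21 with the trend removed. Atf4 itself, named after its values were seen, had 374 and 552, a difference of 0.56 that was 1.05 with the level trend removed.

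Of 29 genes that link amino acids to mTORC1, 5 (17.2%) were lower and 0 higher, a share near the 13.2% of all genes over the minimum. Sesn1, a leucine-linked inhibitor, had 419 after vehicle and 65.4 after IL-27 and was at least 3.23-fold lower. Lamtor4 and Lamtor1, subunits of the lysosomal scaffold, were 2.19-fold and 2.06-fold lower, and Rraga, a Rag GTPase, was at least 2.01-fold lower. Tsc2, the remaining lower gene, named after its values were seen, had 414 and 202. With the level trend removed Lamtor4, Lamtor1, Rraga and Tsc2 were short of 2-fold, at -0.68, -0.52, -0.66 and -0.51, and Sesn1 alone was lower, at -2.33. That is 1 of the 29, beside 5.33% of all genes over the minimum.

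Among 18 other amino acid and peptide carriers over the minimum, 3 were lower and 1 higher. The lower genes are 16.7% of the list, a share near the 13.2% of all genes, and the higher one is 5.56%, beside 1.52%. With the level trend removed 0 of the 18 were lower and 1 higher, beside 5.33% and 3.06% of all genes over the minimum. The mitochondrial serine carrier gene Sfxn1 was 2.70-fold lower, Slc16a10, an aromatic amino acid carrier, 2.33-fold, and Slc25a12, the mitochondrial aspartate and glutamate exchanger, 2.11-fold. These were short of 2-fold with the level trend removed, at -0.91, -0.70 and -0.56. Mfsd12, which brings cysteine into lysosomes and melanosomes, had 393 and 822 and was 2.09-fold higher.

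**Figure D5:**
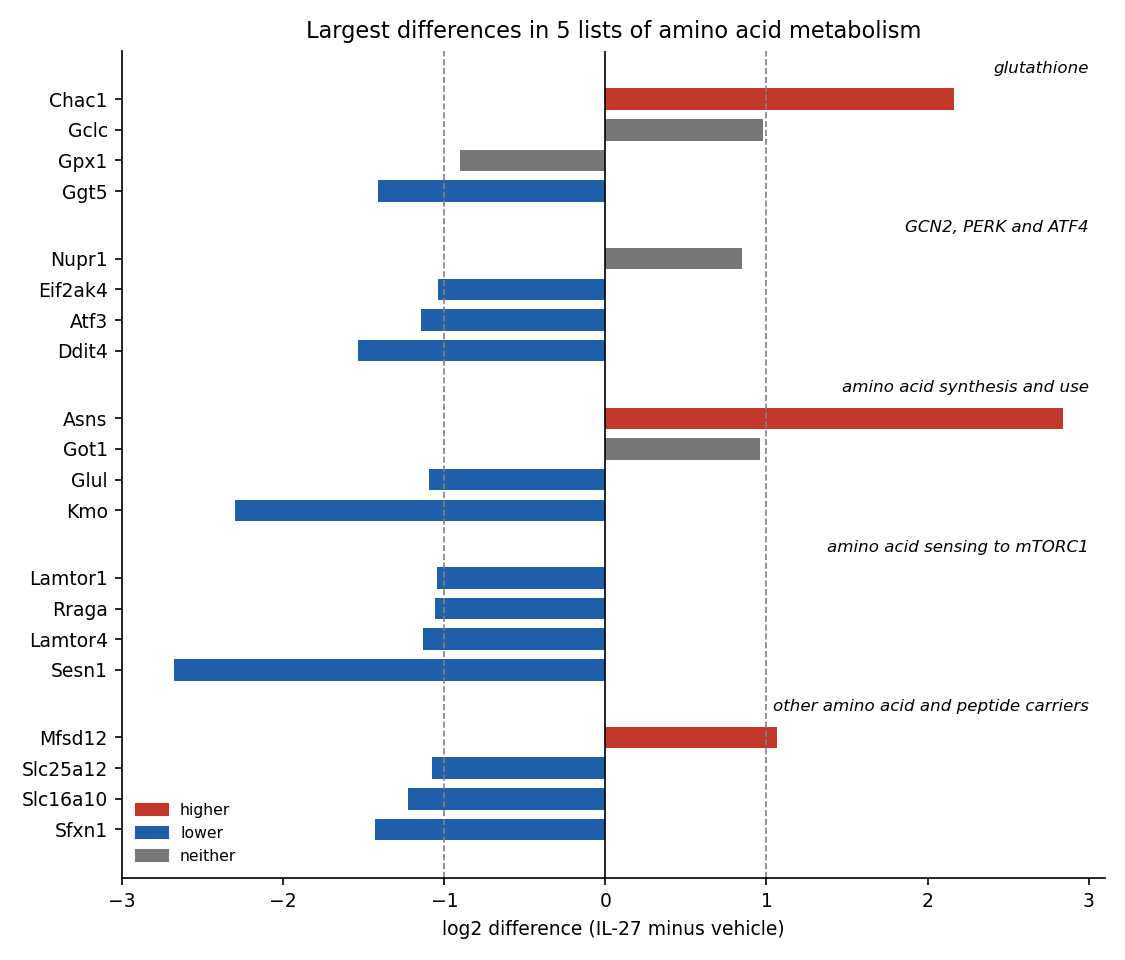
Log2 difference (IL-27 minus vehicle) of the 4 genes that differed most, either way, in each of 5 lists of amino acid metabolism, coloured by call, with dashed lines at -1 and 1. The bars use deposited intensities, so that of Asns (2.84) and those of Sesn1, Rraga and Ggt5 rest on a dim array at or below its olfactory limit.

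The arrays were checked for the cell types the sort could hold. All 10 DC markers were over the minimum, and 4 were lower and none higher (median -0.74). The lower ones are 40% of the list, beside 13.2% of all genes over the minimum. Macrophage and monocyte markers numbered 13. None of them was higher and 11 were lower (84.6%, beside the same 13.2%), and their median was -1.64. Of these 13 markers, 2 were at or below the olfactory limit on the IL-27 array. With the level trend removed 3 DC markers and 11 macrophage and monocyte markers were lower, beside 5.33% of all genes over the minimum. Slc7a8, Slc43a2, Slc1a3, Slc7a7, Slc36a1, Slc38a6, Slc7a2 and, by its brighter probe set, Slc38a9 were lower alongside these markers. The 4 lower DC markers were Cd209a (-2.72), Xcr1 (-1.50), Sirpa (-1.42) and Flt3 (-1.08). Cd22 and Ms4a1 of the B cell list (40% of 5) and Cd4 of the T cell list (25% of 4 over the minimum) were lower too. Cd79b, Pax5 and Cd79a of the B cell list were neither (-0.73, -0.05 and -0.04). Neither was also the call of Lat, Cd3e and Cd8b1 of the T cell list (0.68, 0.48 and -0.26). With the level trend removed Ms4a1 was short of 2-fold at -0.58, and 1 gene in each of these lists was lower. What part the cells behind any of these markers have in the lower carrier genes was not tested. Slc7a11, Slc7a5 and Slc7a1 were higher. All 13 macrophage and monocyte markers, 9 of the 10 DC markers and all 5 B cell markers had a difference below 0. So did 7895 of all 11140 genes over the minimum, so a sign below 0 is common on these arrays. With the level trend removed Zbtb46 of the DC list (0.51) and Cd79a and Pax5 of the B cell list (0.37 and 0.02) turned above 0. Whether the mix of cells has a part in the higher carrier genes was not tested. Medians over the minimum were -0.73 for 5 B cell markers, -0.59 for 4 plasmacytoid DC markers and 0.11 for 4 T cell markers. Of the 5 NK cell and 6 neutrophil and mast cell markers, 1 each was over the minimum, at 0.25 and 0.78, and the 1 erythroid marker measured was below it.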

How the data were processed

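RNA of splenic DCs cultured with vehicle or with IL-27 was labelled with biotin (Affymetrix WT Terminal Labeling Kit, per the labels' protocols) and read on 1 array for each group. The deposited table holds linear intensities of 28815 probe sets, all above 0, and no pseudocount was used. How they were background-corrected, summarised and normalised is not given in the sources used here. The arrays have different distributions (75th percentile 267 with vehicle, 215 with IL-27), and differences carry a trend with level. The number of arrays limits the precision. The submitters' processing notes name build mm8, and only the RefSeq promoter windows have coordinates here (GRCm38.p6). Of the probe sets, 21780 had 1 gene in GEO's platform annotation, 1605 had several and 5430 are unnamed here, and 21689 matched a RefSeq gene ID. The members had 66 probe sets, and a gene with several was represented by that with the highest mean log2. Probe sets can cross-hybridise between relatives. Promoter windows matched 45 of 62 transporter genes.

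Alternatives were quantile normalization, median centring, lowess (span 0.3), an offset of 16, no level minimum or the 75th percentile, a 1.5-fold rule, averaging of probe sets, and the olfactory limit as floor. All transporters over the level minimum are named, with Slc7a11, Slc3a2, Slc7a5, Slc1a5, Slc7a1, Slc7a2, Slc38a2 and Slc38a9 named whatever their values, and up to 4 genes per metabolic list. Atf4, Tsc2, Txnrd1, Odc1, Psat1, Phgdh, Shmt2 and Aldh18a1 were named after their values were seen. Counts of the metabolic lists under lowess and quantile normalization were added after seeing the data. Members and lists were chosen with earlier results of these data known. Calls and trend removal were tested on simulated data. Python 3.11.15, pandas 2.3.3, numpy 2.4.6 and statsmodels 0.14.6 were used.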

Additional observations from a re-analysis of the deposited data

How the results depend on the processing

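The count of higher transporter genes was 3 as deposited and stayed at 3 or 4 under the alternatives, except that a 1.5-fold rule gave 6 (653 of all genes). The count of lower genes was 8 as deposited, 5 after quantile normalization and 5 with the level trend removed by lowess, and 7, 8 or 10 under the others. Over all genes the counts of lower genes were 1468, 909 and 594 in that order, and the 10 came from the 1.5-fold rule, which called 3753 of all genes lower. The median difference of transporter genes over the level minimum, -0.26 as deposited, was -0.044 after quantile normalization, -0.33 with median centring, -0.24 with an offset of 16 and -0.38 with the level minimum at the 75th percentile. Its sign changed under lowess removal of the trend (0.13) and with no level minimum (0.19), which adds the 33 dim genes. The median of all genes moved to -0.0029 and 0.04 there, and the cause of the shift between arrays was not tested. Slc7a2 also lost its call with the offset (-0.91), with the higher level minimum, which it did not reach, and with the olfactory limit as floor (-0.72). With 1 array per group no sample could be left out. Signal near that of olfactory genes limits the 33 dim transporters.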
